A study of Mus musculus with 2 samples.

Results

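The Mir29 family comprises 4 precursor genes of the mouse genome, Mir29a, Mir29b-1, Mir29b-2 and Mir29c. They were taken by their GENCODE symbols from the 2202 microRNA genes of the deposited count tables, and all 4 were found in both tables. Small RNA was sequenced from hippocampus of female mice aged 14 days, of the strain B6CASTF1/J, a first-generation hybrid between C57BL/6J and CAST/EiJ. The labels give 1 group with 2 biological replicates, each a pool of 3 females, and name no treatment. They call the tissue a layer of hippocampus and do not name the layer. With a single age, the rise of this family during brain maturation could not be measured here, and no contrast between conditions was possible. Pool and library preparation cannot be told apart, since every pool was sequenced as 1 library.

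MicroRNAs are cut from hairpin precursors, and the bases near the 5′ end of the mature strand, the seed, pair with target messenger RNAs, which are then translated less or decay sooner. The miR-29 family is known for targeting collagens and other extracellular matrix genes, DNA methyltransferases, and several pro-apoptotic genes of the Bcl2 family. In brain it is known to be low in the embryo and high in mature neurons and astrocytes.

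The 4 genes lie in a pair of clusters, and each cluster holds 1 gene of the 29b type. In the build GRCm38, Mir29a (ENSMUSG00000065610.1) lies on the minus strand of chromosome 6, 31062660 to 31062747, and Mir29b-1 (ENSMUSG00000065604.2) at 31063023 to 31063093. On the plus strand of chromosome 1, Mir29b-2 (ENSMUSG00000065412.3) lies at 195037040 to 195037120 and Mir29c (ENSMUSG00000065548.1) at 195037547 to 195037634. In both clusters the 29b gene comes first in the direction of transcription, with 275 bases between Mir29b-1 and Mir29a and 426 between Mir29b-2 and Mir29c. Mir29b-2 and Mir29c lie wholly within annotated exons of the non-coding gene A330023F24Rik on the same strand. Both also lie within exons of Cd46, a gene of the opposite strand that encodes a complement regulatory protein. Mir29b-1 overlaps an exon of the long non-coding gene Gm27019 by 2 bases, and no other annotated gene overlaps Mir29a.

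**Figure D1:**
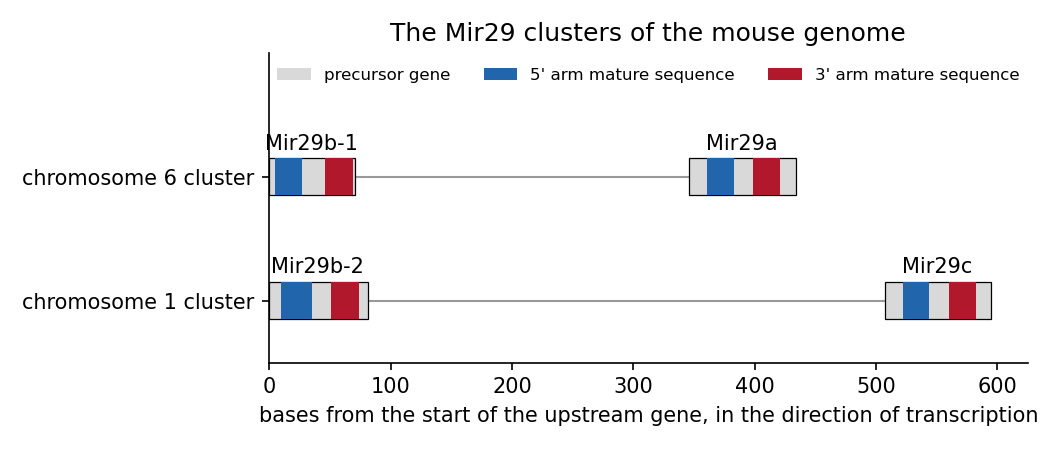
Map of the Mir29 clusters, with bases from the start of the upstream gene on the horizontal axis and 1 cluster per line. Grey boxes are precursor genes, blue boxes mature sequences of the 5′ arm and red boxes those of the 3′ arm. In both clusters the 29b gene lies upstream, 275 bases before Mir29a and 426 bases before Mir29c.

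The mature sequences of the 3′ arm are shown because they carry the seed that defines the family and decide which genes a read can be placed at. They were read from RefSeq (GRCm38.p6), in which all 4 genes were matched by symbol. Capitals mark the seed, bases 2 to 8 from the 5′ end.
miR-29a-3p: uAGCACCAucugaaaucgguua
miR-29b-3p: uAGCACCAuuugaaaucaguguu
miR-29c-3p: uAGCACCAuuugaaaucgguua
The seed is the same in all 3, and of the 1674 distinct mature sequences in the RefSeq table these 3 alone have it. Counting from 1 at the 5′ end, miR-29a-3p and miR-29c-3p differ by 1 substitution, C10U. From miR-29b-3p to miR-29c-3p there are 3 over 22 bases, A18G, G21U and U22A, and the first 17 bases are identical.

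The opposite arms are shown because their sequences tell all 4 genes apart. Capitals again mark bases 2 to 8.
miR-29a-5p: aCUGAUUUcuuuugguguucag
miR-29b-1-5p: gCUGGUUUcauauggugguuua
miR-29b-2-5p: cUGGUUUCacaugguggcuuagauu
miR-29c-5p: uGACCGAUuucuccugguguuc
No seed of this arm is shared between any of the 4. Each 5′ arm sequence occurs in 1 precursor only, and the closest match elsewhere has 2 mismatches for both 29b genes and 3 for Mir29a and Mir29c.

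The precursors of Mir29b-1 (chr6:31063023-31063093, minus strand) and Mir29b-2 (chr1:195037040-195037120, plus strand) show why reads of the 29b type are hard to place. Capitals mark miR-29b-3p.
Mir29b-1: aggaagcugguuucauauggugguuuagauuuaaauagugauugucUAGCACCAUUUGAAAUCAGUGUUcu
Mir29b-2: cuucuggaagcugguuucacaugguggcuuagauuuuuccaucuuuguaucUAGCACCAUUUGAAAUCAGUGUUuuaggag
The mature 29b-3p sequence is identical in both, within a shared run of 25 bases. A read of that sequence therefore has 2 equal places, and the deposited tables do not count multi-mapping reads in a gene. The levels of Mir29b-1 and Mir29b-2 leave out every read placed equally at both, and how many such reads there were was not measured. Mir29b-1 and Mir29c share a run of 22 bases. Mir29a shares at most 14 with any member and at most 11 with any other microRNA gene.

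Other genes share mature sequences too. Of 1018 genes of the tables that matched RefSeq by symbol, 92 have a mature sequence also made by another gene, Mir29b-1 and Mir29b-2 among them. Of these 92, 44 (47.8%) were detected (at least 10 counts in both libraries). Their median level was 83.0 CPM (counts scaled to the total assigned to microRNA genes). Of the 926 genes without such a copy, 322 (34.8%) were detected, with a median of 131 CPM.

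Counts assigned to microRNA genes summed to 4764797 in replicate 1 and 2852269 in replicate 2, which were 36.1% and 36.4% of all reads. Multi-mapping reads made up 40.8% and 37.1%. With a floor of 3 counts, a gene at 0 could still have had 0.630 CPM in replicate 1 and 1.05 CPM in replicate 2. Intervals, floors and tests on reads cover counting error only, and not differences between pools or preparations. They can understate even that error, because several reads can be copies of 1 molecule.

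All 4 Mir29 genes were detected, against 409 of all 2202 genes (18.6%), and Mir29a held most of the family's counts. The family summed to 1760 ± 96.6 CPM (SD, n = 2), which was 0.176% ± 0.00966 of the assigned counts. It had 8059 counts in replicate 1 and 5214 in replicate 2. No read lay on the opposite strand of any member in either library, also at Mir29b-2 and Mir29c, where Cd46 runs the other way.

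Mir29a, the downstream gene of the chromosome 6 cluster, had 7124 counts in replicate 1 and 4318 in replicate 2. These were 1495 CPM (exact 95% interval 1461 to 1530) and 1514 CPM (1469 to 1560), a mean of 1505 ± 13.3 (SD, n = 2). The intervals of both libraries overlap, and Mir29a ranked 91 of 2202 genes by mean level. Its cluster partner Mir29b-1 had 77 and 62 counts, or 16.2 CPM (12.8 to 20.2) and 21.7 CPM (16.7 to 27.9). Its mean was 18.9 ± 3.94 CPM (SD, n = 2), rank 294, and here too the counting intervals of the libraries overlap.

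Mir29c, the downstream gene of the chromosome 1 cluster, had 748 and 702 counts. These were 157.0 CPM (145.9 to 168.6) in replicate 1 and 246 CPM (228 to 265) in replicate 2, with a mean of 202 ± 63.0 (SD, n = 2) and rank 181. Replicate 2 lay above replicate 1, and the intervals do not overlap. Its partner Mir29b-2 had 110 and 132 counts, or 23.1 CPM (19.0 to 27.8) and 46.3 CPM (38.7 to 54.9). The mean was 34.7 ± 16.4 CPM (SD, n = 2), rank 262, and again the replicate 2 interval lay wholly above that of replicate 1.

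**Figure D2:**
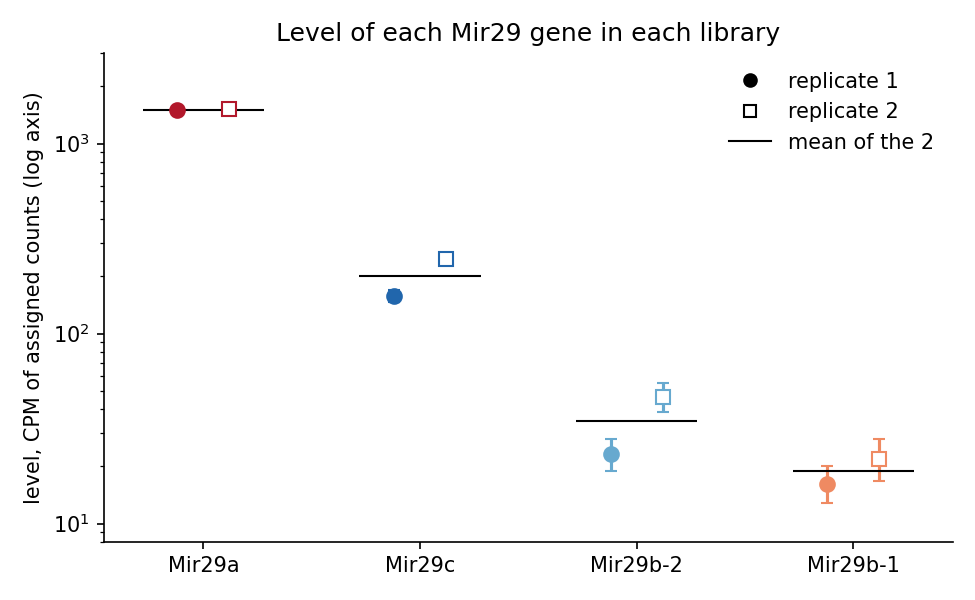
Level of each Mir29 gene in CPM on a log axis, with filled circles for replicate 1, open squares for replicate 2, bars for exact 95% counting intervals and a line at the mean. Mir29a sits near 1505 CPM in both libraries, and Mir29c and Mir29b-2 are higher in replicate 2 (246 against 157.0 CPM and 46.3 against 23.1 CPM).

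By CPM the order was Mir29a, Mir29c, Mir29b-2, Mir29b-1 in both of the 2 libraries. A microRNA read spans a whole mature strand, but the order was also the same in both libraries per annotated base of the precursor. Per 100 bases, the levels in replicate 1 were 1699 CPM for Mir29a, 178 for Mir29c, 28.5 for Mir29b-2 and 22.8 for Mir29b-1. In replicate 2 they were 1720, 280, 57.1 and 30.6 CPM per 100 bases in the same order. The steps from Mir29a to Mir29c and from Mir29c to Mir29b-2 were larger than the SD of either gene. The lowest pair lay close together: Mir29b-2 at 23.1 CPM in replicate 1 was barely above Mir29b-1 at 21.7 CPM in replicate 2. The means of these 2 genes differ by less than the SD of Mir29b-2.

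In each cluster the upstream 29b gene had far fewer assigned counts than its downstream partner. Mir29b-1 held 1.07% (exact 95% interval 0.845 to 1.33) of the chromosome 6 cluster's counts in replicate 1 and 1.42% (1.09 to 1.81) in replicate 2. Mir29b-2 held 12.8% (10.7 to 15.2) and 15.8% (13.4 to 18.5) of the chromosome 1 cluster. These shares leave out multi-mapping reads, so they do not compare the output of the hairpins. Of the reads assigned to either 29b gene, Mir29b-2 held 58.8% (51.4 to 66.0) and 68.0% (61.0 to 74.5).

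Mir29a held 88.4% (exact 95% interval 87.7 to 89.1) of the family's counts in replicate 1 and 82.8% (81.8 to 83.8) in replicate 2. Mir29c held 9.28% (8.66 to 9.94) and 13.5% (12.5 to 14.4). Mir29b-1 and Mir29b-2 together held 2.32% (2.00 to 2.67) and 3.72% (3.22 to 4.27). The share of Mir29a was lower in replicate 2. Those of Mir29c and of the 29b genes together were higher, and none of these intervals overlap between the libraries. Taken alone, Mir29b-2 held 1.36% in replicate 1 and 2.53% in replicate 2, also without overlap. Mir29b-1 alone held 0.955% (0.755 to 1.19) and 1.19% (0.913 to 1.52), and its intervals overlap. These shares do not depend on how the libraries are scaled. They leave out multi-mapping reads, such as those of miR-29b-3p, so they do not give the family's make-up.

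Of the 4 members 3 were higher in replicate 2 and none was lower, by a two-sided exact binomial test per gene with Benjamini-Hochberg adjustment over all 450 genes tested. Among all tested genes 32.2% were called higher and 31.3% lower, 63.6% in all, so such calls were common. The test compares these 2 libraries, not conditions, and library sizes were scaled by TMM in edgeR, which set every log2 ratio 0.12 above that from total counts. Each ratio that follows is a log2 difference between libraries, replicate 2 to replicate 1, with an exact 95% counting interval.

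Mir29b-2 gave 1.13 (0.75 to 1.50), with an adjusted p of 5.90e-09 by the exact test. It was the 1 member past 2-fold, which 10.7% of tested genes exceeded upward. Without TMM scaling it stood at 1.00, just past that limit. Mir29c gave 0.77 (0.62 to 0.92), with an adjusted p of 3.13e-23 by the exact test. Mir29a gave 0.14 (0.09 to 0.19), with an adjusted p of 1.31e-06 by the exact test, a difference of about the size of the scaling shift. This call ended with library sizes taken as total counts, where its log2 ratio was 0.02 and the exact test's adjusted p 0.596.

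Mir29b-1, the member with the fewest assigned counts, gave 0.55 (0.04 to 1.05). Its adjusted p by the exact test was 0.0512, so it did not pass. It passed, at an adjusted p of 0.0417, when the exact p was taken as the sum of outcomes no likelier than the observed one. That definition was added after seeing the data. It also passed at 0.0480 in the unstranded column, where its counts are the same but the scaling and the number of tests differ. By the same exact test, Mir29b-1 did not pass with DESeq2 size factors (adjusted p of 0.0974), total counts (0.142) or no count filter (0.0847). Its 77 and 62 counts give an interval that reaches from near equality to 2-fold.

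The members' ratios were all above 0 and ranked from 39 (Mir29b-2) to 203 (Mir29a) of 450 tested genes, counted from the highest. The absolute log2 ratio of Mir29a was larger than that of 13.3% of the 450 genes, that of Mir29b-1 than 53.8%, that of Mir29c than 70.0% and that of Mir29b-2 than 81.8%. The members' median log2 ratio was 0.66, and the median over all tested genes was 0.01. The median of 4 genes, which form only 2 clusters, does not show that the family stands apart. As a sum, the chromosome 6 cluster gave 0.15 (0.09 to 0.20) and the chromosome 1 cluster 0.82 (0.68 to 0.96). Mir29a supplies nearly all counts of the first sum and Mir29c most of the second.

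**Figure D3:**
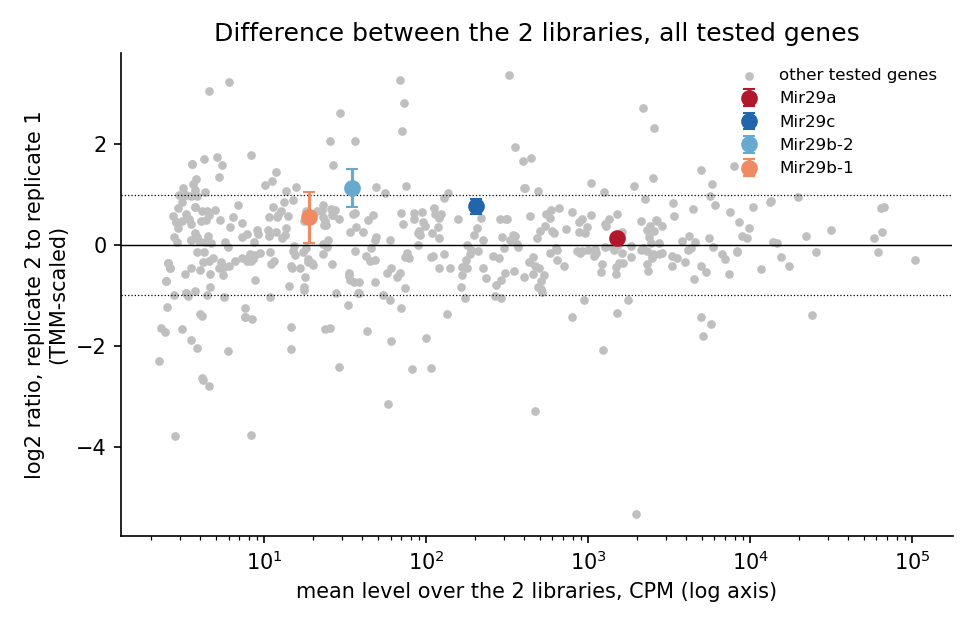
Log2 ratio of replicate 2 to replicate 1 after TMM scaling against mean level in CPM on a log axis, for 450 tested genes. Coloured points are the Mir29 genes with exact 95% counting intervals, grey points are the other genes and dotted lines mark 2-fold. Mir29b-2 lies above the upper line at 1.13, Mir29c at 0.77, Mir29b-1 at 0.55 and Mir29a near 0 at 0.14.

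The ratio between a pair of members within a library is free of library scaling, and all 6 pairs were compared between the libraries with a two-sided Fisher's exact test, adjusted over the 6. That Mir29c and Mir29b-2 rose more than Mir29a was known from earlier results of these data, so the pairs describe these libraries. Mir29a outnumbered Mir29c 9.52-fold in replicate 1 and 6.15-fold in replicate 2. The ratio of Mir29c to Mir29a was 1.55 times as high in replicate 2 (exact 95% interval 1.39 to 1.73), with an adjusted p of 4.80e-14 by Fisher's exact test. Mir29a outnumbered Mir29b-2 64.8-fold and 32.7-fold. The ratio of Mir29b-2 to Mir29a was 1.98 times as high in replicate 2 (1.52 to 2.58), with an adjusted p of 6.06e-07 by Fisher's exact test.

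The other 4 pairs did not pass, and their intervals allow sizeable differences. Within the clusters, the ratio of Mir29b-1 to Mir29a was 1.33 times as high in replicate 2 (0.933 to 1.88, Fisher's exact test, adjusted p = 0.135). The ratio of Mir29c to Mir29b-2 was 0.782 times as high (0.589 to 1.04, adjusted p = 0.124 by the same exact test). Between clusters, the ratio of Mir29b-2 to Mir29b-1 was 1.49 times as high (0.959 to 2.32) and that of Mir29c to Mir29b-1 1.17 times (0.810 to 1.68). The adjusted p-values of these exact tests were 0.124 and 0.424. Both pairs that passed join Mir29a to a gene of the chromosome 1 cluster, and whether clusters differ more than their members do was not tested.

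**Figure D4:**
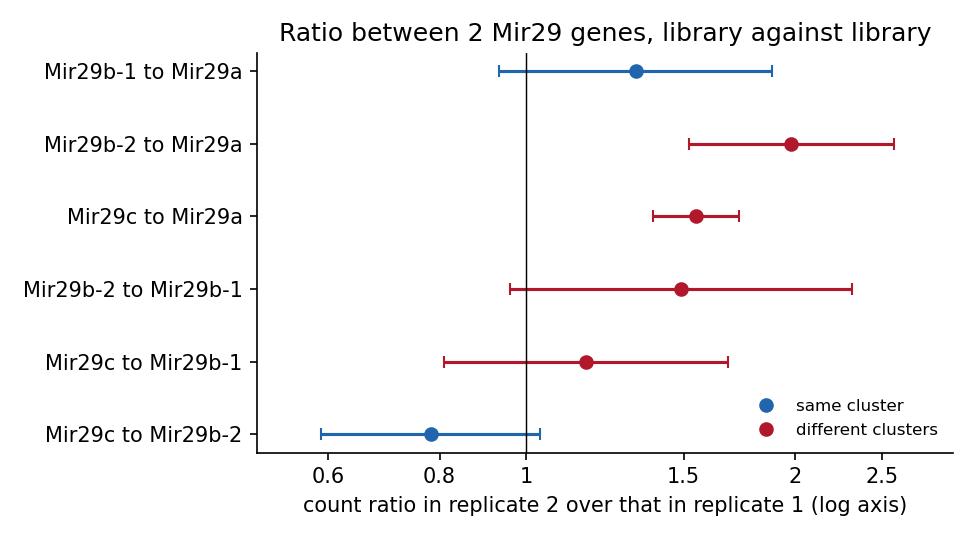
Count ratio between 2 Mir29 genes in replicate 2 over the same ratio in replicate 1, on a log axis, with exact 95% intervals, in blue for pairs of 1 cluster and red for pairs across clusters. The intervals of Mir29b-2 to Mir29a (1.98) and Mir29c to Mir29a (1.55) lie above 1, and the other 4 include 1.

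The genes nearest to each member in level were found by Euclidean distance of log2(CPM + 1) over the 2 libraries. This choice uses both CPM values, so it fixes ratios near the member's own, and they are given as a description only. Nearest to Mir29a were Mir322, at 1522 and 1524 CPM with a log2 ratio of 0.12 (0.07 to 0.18), and Mir671, at 1595 and 1458 CPM with -0.01 (-0.06 to 0.05). Nearest to Mir29c were Mir331, at 186 and 248 CPM with 0.53 (0.39 to 0.68), and Mir6540, at 191 and 221 CPM with 0.34 (0.19 to 0.49).

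Nearest to Mir29b-2 were Mir181b-1, a copy of the miR-181 family, at 29.2 and 41.0 CPM, and Mir670 at 29.8 and 42.4 CPM. Their log2 ratios were 0.61 (0.25 to 0.98) and 0.63 (0.27 to 0.99). Nearest to Mir29b-1 were Mir7j at 14.5 and 21.4 CPM and Mir7066 at 15.3 and 19.6 CPM, with log2 ratios of 0.68 (0.16 to 1.20) and 0.48 (-0.05 to 1.00). The low counts of such genes give wide intervals, as they do for Mir29b-1.

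The nearest microRNA genes outside the clusters stood at other levels. Mir335, a microRNA of the imprinted Mest gene, lies 321264 bases from the chromosome 6 cluster and stood at 2299 and 2034 CPM. Its log2 ratio was -0.05 (-0.10 to -0.01), and it was called lower with an adjusted p of 0.0338 by the exact test. Gm24802, 190644 bases from the chromosome 1 cluster, had 0 counts in both libraries.

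MicroRNAs known to accumulate in postnatal brain, other than Mir29, moved in both directions between the libraries. Of 15 genes of that list 13 were tested, with 7 higher and 5 lower in replicate 2 and a median log2 ratio of 0.15. Mirlet7b, a let-7 gene of maturing neural tissue, gave -0.31 (-0.31 to -0.30), and Mirlet7i gave 0.26 (0.26 to 0.27). Of 9 proliferation-linked genes of the mir-17 family clusters 7 were tested, with 5 higher and 2 lower and a median of 0.24. Mir17 gave 0.27 (0.23 to 0.31) and Mir93 -0.11 (-0.14 to -0.07). Both lists hold calls in each direction. All but 1 tested gene of the first list and every tested gene of the second were called. Over all tested genes 63.6% were called, 32.2% higher and 31.3% lower. Whether the lists differ from all tested genes was not tested. The Mir124a, Mir128 and Mir138 genes, Mir219a-2 and Mir338 of the first list are also in the cell type lists that follow. Calls in those lists are therefore not independent of these.

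The levels of microRNAs that mark cell types are given beside the Mir29 differences, and their part in these was not tested. Of all tested genes 63.6% were called in either direction, and the counts called in these lists are to be read against that share. In bulk tissue, fewer cells of a type and less RNA per cell cannot be told apart. The sums of these lists leave out multi-mapping reads, so they can understate genes whose mature sequence is also made elsewhere. Mir124a-1, which has other copies in the neuronal list, had 10 counts in replicate 1 and 18 in replicate 2. Neuronal microRNAs, with 11 of 13 detected, summed to 26270 CPM in replicate 1 and 27921 in replicate 2, with 7 higher and 4 lower. Those of oligodendrocytes, with 3 of 4 detected, summed to 1929 and 3198 CPM, and 2 of 3 tested were higher. Mir219a-2, a microRNA of oligodendrocyte differentiation, gave a log2 ratio of 1.17 (1.12 to 1.22), and Mir338 of the same lineage gave -0.05 (-0.14 to 0.04) and did not pass.

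Choroid plexus and ciliated-cell microRNAs, with 4 of 7 detected and Mir449b at 0 in both libraries, were lower in replicate 2 in 4 of 5 tested genes. They summed to 3951 and 1189 CPM. Microglial and immune microRNAs, with 6 of 6 detected, summed to 2469 and 1885 CPM, with 3 lower and none higher. Vessel microRNAs, with 3 of 3 detected, summed to 15962 and 20349 CPM, with 1 higher and 2 lower. Mir126a was higher, at 9966 and 16864 CPM. Mir143, at 5729 and 3305 CPM, and Mir145a, at 268 and 180 CPM, were lower. Red blood cell microRNAs, with 3 of 3 detected, summed to 290 and 722 CPM, with 1 of 3 higher. The higher gene was Mir451a, abundant in red cells, at 1.73 (1.62 to 1.84). It supplied most of these sums, at 217 and 663 CPM. Mir144 gave -0.21 (-0.56 to 0.13) and Mir486 -0.17 (-0.65 to 0.29), and neither passed.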

How the data were processed

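Libraries of small RNA from 2 pools were analysed. The deposited tables hold raw counts per microRNA gene on mm10 with annotation M21, per the text that accompanies them; the aligner and counter are not stated there. Of both strand columns, the one with the larger sum was used as sense, and lines for reads in no gene stayed out of library sizes. CPM was computed here. Log2 ratios were scaled by TMM (edgeR 4.0.16, R 4.3.3) and tested for the 450 genes whose counts summed to 20 or more. The binomial p was 2 times the smaller tail, with Benjamini-Hochberg adjustment at 0.05. With 1 group, edgeR's own test had no contrast to fit. Exact intervals for shares are Clopper-Pearson at 95%. The test was checked on simulated counts. Other software was Python 3.11.15, scipy 1.17.1, pandas 2.3.3, numpy 2.4.6 and matplotlib 3.10.9.

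Named genes were the 4 members, the 2 genes nearest to each in level (pseudocount 1), the 2 most abundant of each of 8 lists, and the nearest microRNA gene to each cluster. Of the lists' leaders, some are not described in the text. Members and lists were chosen with earlier results of these data known. Alternatives were the unstranded column, size factors of DESeq2 1.42.0, unscaled totals, other count minimums, other denominators of CPM, levels per base, leaving out each replicate, and an adjusted p under 0.01. Another definition of the exact p was added after seeing the data.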

Additional observations from a re-analysis of the deposited data

How the results depend on the processing

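The family's level of 1760 CPM was 1878 CPM in the unstranded column and 1962 CPM with the most abundant gene left out of the total. Scaled to all reads in place of assigned counts it was 638 CPM. These shifts follow from the smaller or larger total that divides the same counts. Leaving out 1 replicate gave 1691 to 1828 CPM. The order of the members was the same per base. The unstranded counts of all 4 members equal their sense counts, so that column could not change the order or the pairs. A limit of 0.01 left the same 2 pairs. The count of members called higher was 3, and 2 to 4 under the alternatives. At total counts it was 2, and in the unstranded column and under the added definition of p it was 4. No member's direction reversed. Scaling by TMM set ratios 0.12 above those from total counts, and the calls over all genes, 145 higher and 141 lower, became 125 and 168 with total counts. No paired analysis was possible because there is 1 group. The ratio between libraries needs both, so no replicate could be left out of it. Mir29b-1 fell under a summed count of 200 and has no value there.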
